A study of Oryza sativa with 30 samples.

Results

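The genes described here are 6 MADS-box loci of rice, chosen by locus identifier from the 55986 loci in the count files. They are the SVP-like genes OsMADS22 (LOC_Os02g52340), OsMADS47 (LOC_Os03g08754) and OsMADS55 (LOC_Os06g11330), the SOC1-like genes OsMADS50 (LOC_Os03g03070) and OsMADS56 (LOC_Os10g39130), and OsMADS51 (LOC_Os01g69850), a MADS-box gene of the other main lineage (type I) that is kept apart from both families. All 6 passed the filter on low counts, as did 22839 loci in all.

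MADS-box proteins are transcription factors that bind DNA as dimers or larger complexes, and several of them set when a shoot apex stops making leaves and starts an inflorescence. In Arabidopsis, SVP represses flowering and SOC1 promotes it. In rice the SVP-like proteins are known as repressors of brassinosteroid responses. Of the SOC1-like pair, OsMADS50 promotes flowering in long days upstream of Ehd1, whereas OsMADS56 delays it there, and their proteins bind each other. OsMADS51 promotes flowering in short days and is placed between the clock-regulated gene OsGI and Ehd1, which in turn activates the florigen genes.

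RNA was sequenced from dissected shoot apices of the japonica cultivars Taichung 65 (T65) and Nipponbare (NB). Plants grew for 6 weeks with 16 h of light and 8 h of dark and were then moved to 10 h of light and 14 h of dark, with 28 °C in the light and 24 °C in the dark. Apices were taken at 0, 4, 8 and 12 days after the move, so day 0 is the long-day state. No plants kept in long days were sampled on the later days, so short days and added age cannot be told apart. T65 is known to carry non-functional alleles of Ehd1 and Hd1, which the labels do not mention. There were 3 libraries in each of 8 groups, except T65 day 12 with 2. The labels do not say whether the libraries of a group came from separate plants, so the p-values reflect how far these libraries scatter, and that scatter may be technical. They do not give the time of day of collection either.

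The 23 libraries held between 8.61 M and 24.9 M gene counts (M, 1000000). Levels are given as CPM, counts per 1000000 after TMM scaling of the library sizes. CPM is not divided by gene length, so levels are compared between groups for one gene and not between genes. Each of the 6 genes had at least 193 counts in every library, and the counting error at a gene's lowest count was 7.20% for OsMADS56 and 2.06 to 4.78% for the others. Of 5 KNOX markers of the shoot meristem, 4 had counts in every library, and the summed level of the 5 lay between 317 and 509 CPM over all groups, lowest in T65 on day 8 (317 to 334 CPM). The 7 green leaf markers all had counts in every library. Their summed level in T65 was 67.7 to 99.1 CPM on day 0, 110 to 165 CPM on day 4, 97.6 to 179 CPM on day 8 and 107 to 119 CPM on day 12. The NB sum was 82.9 to 86.5, 93.7 to 158, 170 to 217 and 134 to 243 CPM on the same days. It lay above day 0 on each later day, except that T65 days 0 and 8 overlapped. The part of leaf tissue in the changes below was not tested. In bulk apices, fewer cells of a type and less RNA per cell cannot be told apart.

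In T65, 2 of the 6 genes changed between day 12 and day 0 (edgeR quasi-likelihood, Benjamini-Hochberg adjusted over all loci tested, threshold 0.05), against 5.13% of all loci tested: OsMADS51 fell and OsMADS22 rose. The median log2 fold change in T65 was 0.079 for the 6 genes and 0.0041 for all loci. In NB, 5 of the 6 changed over the same days, against 13.2% of all loci. OsMADS50, OsMADS47 and OsMADS51 fell, OsMADS56 and OsMADS22 rose, and OsMADS55 did not pass. The median log2 fold change of the 6 genes in NB was -0.30, beside -0.0072 over all loci.

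**Figure D1:**
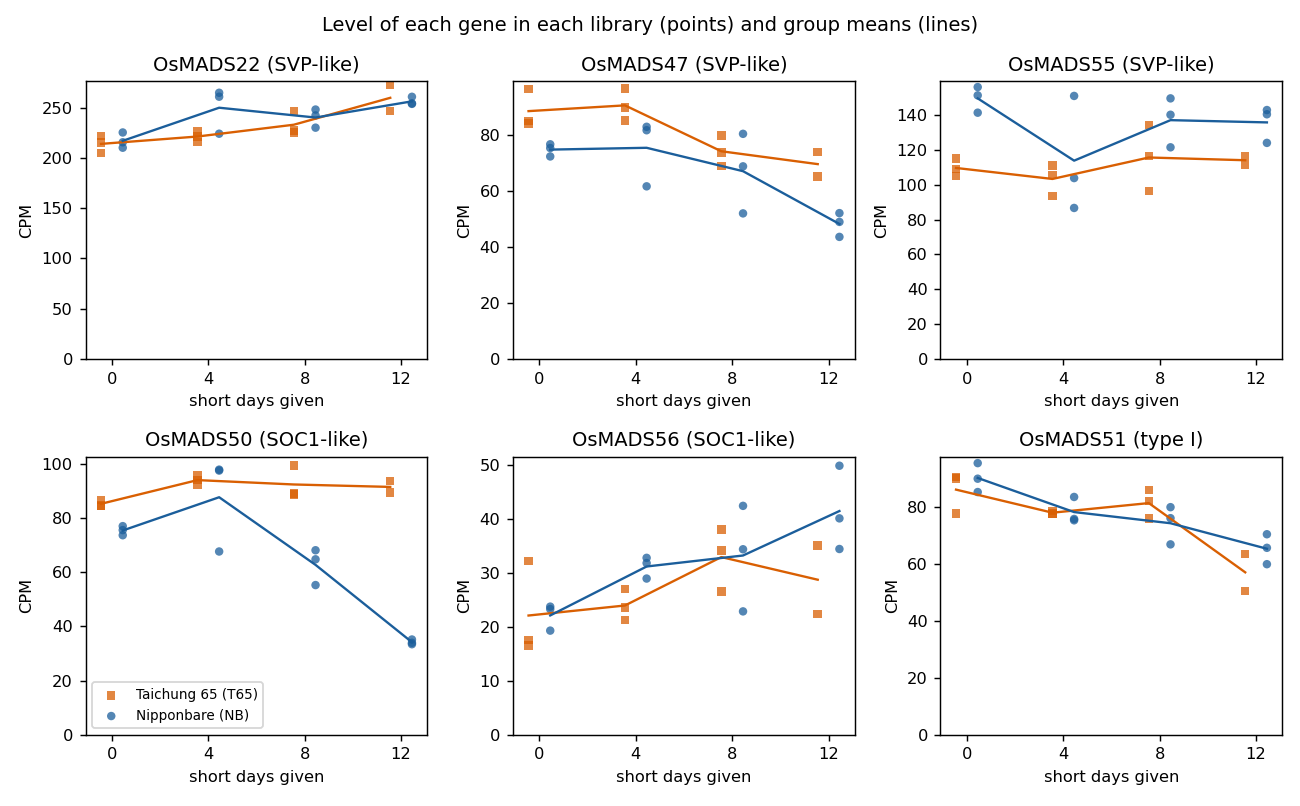
Levels of the 6 genes in CPM (vertical axes, each with its own scale) against days in short days (horizontal axes), with T65 as squares and NB as circles, a point for each library and a line through the group means. OsMADS50 falls to about 34.2 CPM in NB on day 12 while the T65 points stay between 84.5 and 99.3 CPM, and OsMADS51 ends lower than it began in both cultivars.

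OsMADS50, the long-day activator, fell in NB and was not called in T65. Its level in T65 was 84.6, 86.6 and 84.5 CPM on day 0, 94.0, 92.2 and 95.7 CPM on day 4, 88.7, 89.1 and 99.3 CPM on day 8, and 89.3 and 93.6 CPM on day 12. The NB libraries had 73.6, 75.5 and 77.0 CPM on day 0, 97.5, 67.6 and 97.8 CPM on day 4, 68.1, 55.2 and 64.7 CPM on day 8, and 33.9, 33.4 and 35.2 CPM on day 12. All 3 NB libraries of day 12 lay below every other library of the series, and no T65 library lay below any NB library of day 0.

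In T65 the mean was 91.5 ± 3.03 CPM on day 12 (SD, n = 2) and 85.2 ± 1.21 CPM on day 0 (SD, n = 3), a log2 fold change of 0.10 ± 0.12 that did not pass (SE; edgeR adjusted p = 0.664). The NB level on day 12 was 34.2 ± 0.891 CPM, against 75.4 ± 1.68 CPM on day 0 (SD, n = 3 each), a log2 fold change of -1.14 ± 0.11 (edgeR adjusted p = 3.16e-07). The difference between these day effects, T65 minus NB, was 1.24 ± 0.16 on the log2 scale (edgeR adjusted p = 0.000168). It was the 1 call among the 6 genes for this interaction, which 6.81% of all loci passed. The libraries fall into a set of 7 with a lower and a set of 16 with a higher share of reads aligned to several places. Over the 16 alone, where T65 day 0 keeps 1 library, the difference was 1.26 with an edgeR adjusted p of 0.0955.

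Both steps after day 4 were called for OsMADS50 in NB. Between day 8 and day 4 the level fell by 0.48 ± 0.10 on the log2 scale (edgeR adjusted p = 0.00461), the 1 call among the 6 genes, against 12% of all loci. That call was lost in the higher-share libraries (edgeR adjusted p = 0.064) and with the 2 NB groups alone in the fit (0.161). Between day 12 and day 8 it fell by 0.87 ± 0.11 (edgeR adjusted p = 9.25e-05), again the 1 call among the 6, where 2.08% of all loci passed. Day 8 against day 0 gave -0.27 ± 0.10 and did not pass (edgeR adjusted p = 0.196).

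Set side by side on each day, OsMADS50 was higher in T65 than in NB by 1.42 ± 0.12 on the log2 scale on day 12 (edgeR adjusted p = 1.76e-08) and by 0.56 ± 0.10 on day 8 (edgeR adjusted p = 0.00135). The cultivar difference on day 0 was 0.18 ± 0.10 and did not pass (edgeR adjusted p = 0.32), although the T65 libraries all lay above the NB libraries. On day 8 OsMADS50 was the 1 call among the 6 genes, against 4.19% of all loci. That day 8 call was also lost over the higher-share libraries, where T65 day 8 keeps 1 library and NB day 8 keeps 2, with a difference of 0.70. The 8 group means ran, from the highest, T65 day 4, T65 day 8, T65 day 12, NB day 4, T65 day 0, NB day 0, NB day 8 and NB day 12. The libraries of neighbouring groups in this order overlapped as far as T65 day 0, and the steps to NB day 0, to NB day 8 and to NB day 12 were without overlap.

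**Figure D2:**
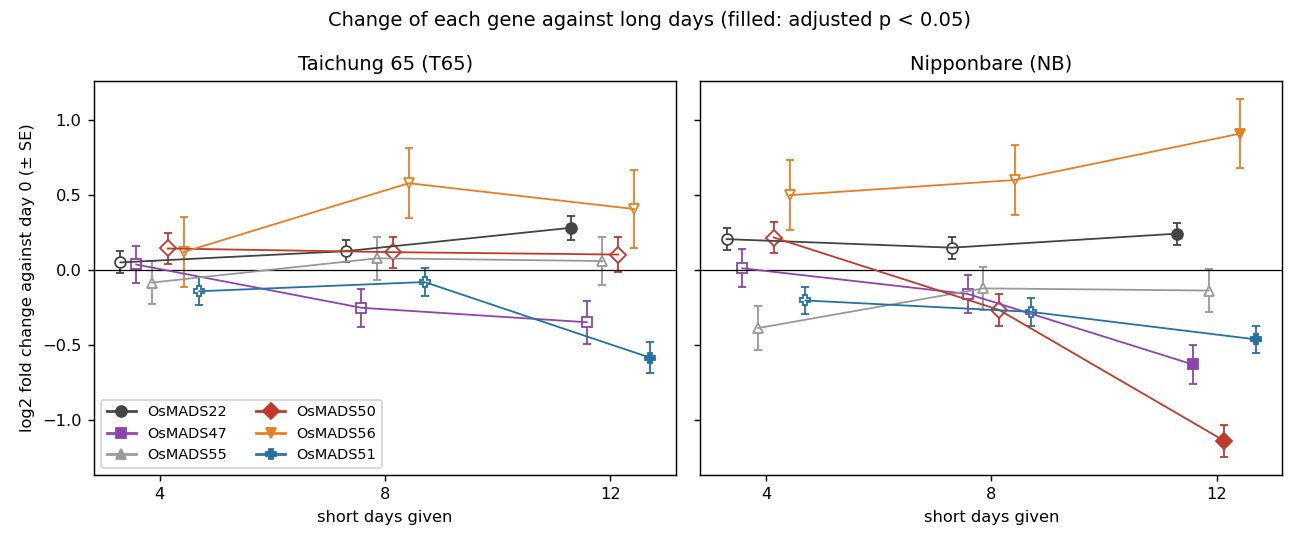
Log2 fold change against day 0 of the same cultivar (vertical axes) for the 6 genes on days 4, 8 and 12, with T65 in the left panel and NB in the right, bars of ± 1 SE and filled symbols where the edgeR adjusted p was under 0.05. The filled symbols all stand at day 12, with 2 in T65 and 5 in NB, and OsMADS50 in NB is the lowest of them at -1.14.

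A second locus fell with OsMADS50 in NB. LOC_Os03g03100 follows OsMADS50 closely in the numbering of loci along chromosome 3, and the files give it no symbol. It was looked up for this position, and other loci nearby were not read. The RefSeq table used for names (assembly ASM3414082v1) lists OsMADS50 on chromosome 3 as a gene of 30552 bp, and whether its transcript takes in this neighbouring locus cannot be told from the files. LOC_Os03g03100 had 51 to 322 counts per library. In T65 its mean was 10.2 ± 0.345, 10.2 ± 1.13 and 11.8 ± 1.02 CPM on days 0, 4 and 8 (SD, n = 3 each) and 11.4 ± 2.21 CPM on day 12 (SD, n = 2). The NB mean was 12.9 ± 0.958 CPM on day 0, 9.88 ± 2.15 CPM on day 4, 8.43 ± 0.101 CPM on day 8 and 3.33 ± 0.248 CPM on day 12 (SD, n = 3 each). Like OsMADS50, the locus was lowest in NB on day 12.

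The log2 fold change of LOC_Os03g03100 between day 12 and day 0 was 0.13 ± 0.16 in T65 (edgeR adjusted p = 0.693) and -1.96 ± 0.16 in NB (2.78e-08), and the T65 minus NB difference of these was 2.09 ± 0.22 (2.19e-05). On day 12 it was 1.75 ± 0.17 higher in T65 than in NB (edgeR adjusted p = 2.92e-07). Unlike OsMADS50, it had already passed on day 8 in NB, at -0.62 ± 0.14 (edgeR adjusted p = 0.026), a call lost under 7 of 14 alternative settings. Across libraries its log2 CPM followed that of OsMADS50 with a Pearson r of 0.855 (n = 23), which was 0.081 within T65 (n = 11) and 0.857 within NB (n = 12). These values describe libraries that share a day and a cultivar within groups.

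**Figure D3:**
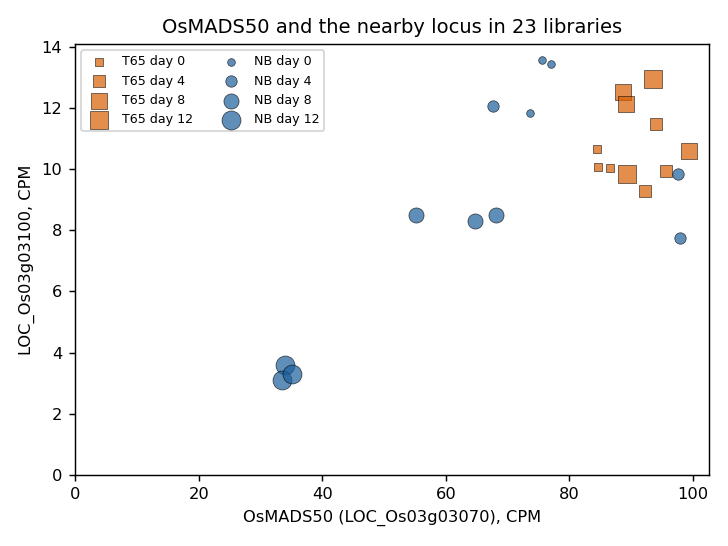
CPM of OsMADS50 against CPM of LOC_Os03g03100 in the 23 libraries, with T65 as squares and NB as circles. The 3 NB libraries of day 12 stand apart at the lower end of both axes.

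OsMADS56, the SOC1-like long-day repressor, moved the other way from OsMADS50 in NB. Its level in T65 was 16.5, 17.5 and 32.2 CPM on day 0, 27.0, 23.5 and 21.3 CPM on day 4, 26.5, 38.0 and 34.1 CPM on day 8, and 35.1 and 22.3 CPM on day 12. For NB the values were 19.3, 23.3 and 23.7 CPM on day 0, 31.8, 32.7 and 28.9 CPM on day 4, 22.8, 42.4 and 34.3 CPM on day 8, and 40.1, 49.8 and 34.4 CPM on day 12. All NB libraries of day 12 lay above all of day 0, whereas in T65 the libraries of both days overlapped. OsMADS56 was the most variable of the 6 genes between replicates, with a biological coefficient of variation of 19.6% beside 6.65 to 12.5% for the others.

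The log2 fold change of OsMADS56 between day 12 and day 0 was 0.40 ± 0.26 in T65 (edgeR adjusted p = 0.399) and 0.91 ± 0.23 in NB (edgeR adjusted p = 0.0125), higher in 3 of 3 NB libraries. Without NB day 0 replicate 1 the NB change was 0.82 with an adjusted p of 0.0694, and without NB day 12 replicate 2 it was 0.77 with an adjusted p of 0.056. The T65 minus NB difference of the day effects was -0.50 ± 0.35 (edgeR adjusted p = 0.416). On day 12 OsMADS56 differed between T65 and NB by -0.50 ± 0.26 (edgeR adjusted p = 0.154). With no filter on low counts that difference was -0.49 and passed (edgeR adjusted p = 0.00551), as did the one on day 4, at -0.39 (0.0259). All neighbours in the order of its 8 group means, from NB day 12 down to T65 day 0, overlapped.

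The balance within the SOC1-like pair can be read inside each library, where scaling between libraries plays no part. Since neither gene's count is divided by its length, the ratio is compared between libraries only. In T65 there were 19.5 to 38.1 counts of OsMADS56 for every 100 counts of OsMADS50 on day 0, 22.2 to 28.7 on day 4, 29.9 to 42.7 on day 8 and 23.9 to 39.3 on day 12. In NB there were 26.2 to 30.8 on day 0, 29.6 to 48.4 on day 4, 33.5 to 76.7 on day 8 and 97.8 to 149 on day 12. The NB libraries of day 12 lay above all others, and the T65 groups overlapped from day to day except on days 4 and 8. No test was made of this ratio, because it combines members.

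**Figure D4:**
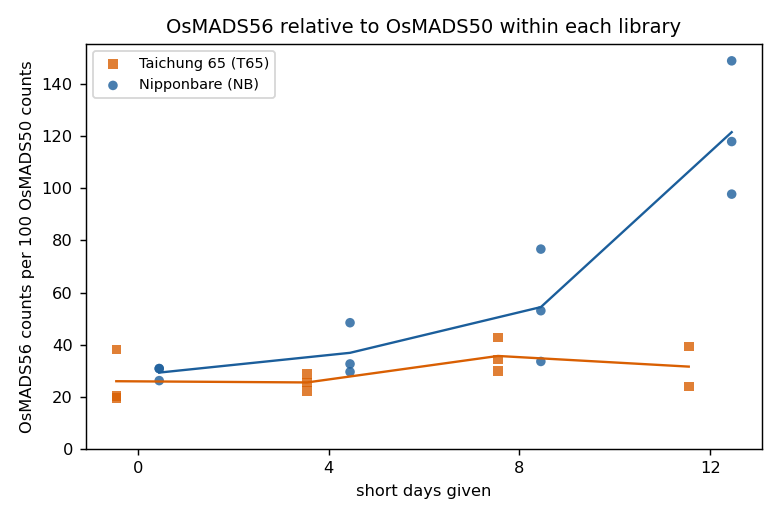
Counts of OsMADS56 per 100 counts of OsMADS50 in each library (vertical axis) against days in short days, T65 as squares and NB as circles. The NB libraries of day 12 lie at 97.8 to 149, and all T65 libraries lie at 42.7 or less.

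Of the SVP-like genes, OsMADS47 fell in NB. Its T65 level was 84.3, 96.7 and 85.1 CPM on day 0, 85.4, 96.8 and 90.1 CPM on day 4, 80.0, 69.0 and 73.9 CPM on day 8, and 65.3 and 74.2 CPM on day 12. The NB level was 76.8, 75.5 and 72.5 CPM on day 0, 83.1, 61.8 and 81.9 CPM on day 4, 80.6, 52.1 and 68.9 CPM on day 8, and 43.7, 49.1 and 52.2 CPM on day 12. The day 12 libraries lay below those of day 0 in both cultivars, without overlap.

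The log2 fold change between day 12 and day 0 was -0.35 ± 0.14 in T65 and did not pass (edgeR adjusted p = 0.161), and it was -0.63 ± 0.13 in NB and passed (edgeR adjusted p = 0.00241). Those effects were not shown to differ: T65 minus NB was 0.28 ± 0.19 (edgeR adjusted p = 0.401). The level itself was 69.7 ± 6.26 CPM in T65 (SD, n = 2) and 48.3 ± 4.3 CPM in NB (SD, n = 3) on day 12, a difference of 0.52 ± 0.14 on the log2 scale (edgeR adjusted p = 0.00852). Without T65 day 12 replicate 2 that difference was 0.44 and did not pass (edgeR adjusted p = 0.107). OsMADS47 and OsMADS50 were the 2 of 6 genes called between the cultivars on day 12, when 30.7% of all loci were, so the share of the 6 genes was near that of all loci. On day 0 OsMADS47 differed by 0.24 ± 0.13 (edgeR adjusted p = 0.262).

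OsMADS22 rose by small amounts in both cultivars. In T65 it was at 215, 205 and 222 CPM on day 0, 216, 221 and 226 CPM on day 4, 227, 225 and 246 CPM on day 8, and 246 and 273 CPM on day 12. In NB it was at 210.1, 215 and 225 CPM on day 0, 261, 224 and 265 CPM on day 4, 230.0, 242 and 248 CPM on day 8, and 254, 254 and 261 CPM on day 12. Day 12 lay above day 0 without overlap in T65 and in NB.

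The log2 fold change between day 12 and day 0 was 0.28 ± 0.08 in T65 (edgeR adjusted p = 0.0483) and 0.24 ± 0.07 in NB (edgeR adjusted p = 0.0324). No other day 12 calls of the 6 genes against day 0 were lost as often: the T65 call was lost under 10 of 13 alternative settings and the NB call under 8 of 14, always with the same sign. Scaled by library totals alone the changes were 0.26 in T65 (edgeR adjusted p = 0.0505) and 0.16 in NB (0.119). OsMADS22 had the smallest span of the 6 genes, with a ratio of 1.21 between its highest and lowest group means, beside 2.75 for OsMADS50.

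OsMADS55, the third SVP-like gene, passed in none of the 17 comparisons by edgeR. In T65 it was at 115, 105 and 109 CPM on day 0, 111, 93.4 and 105 CPM on day 4, 116, 134 and 96.4 CPM on day 8, and 116 and 112 CPM on day 12. In NB it was at 141, 156 and 151 CPM on day 0, 86.6, 151 and 104 CPM on day 4, 121, 149 and 140.1 CPM on day 8, and 124, 143 and 140.3 CPM on day 12. The T65 libraries of day 0 all lay below the NB libraries of day 0.

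That cultivar difference on day 0 was -0.45 ± 0.14 on the log2 scale (edgeR adjusted p = 0.0672). It passed with DESeq2 (-0.44, adjusted p = 0.0369) and with the day 0 groups alone in the fit (-0.44, edgeR adjusted p = 0.00273). Whether reads of both cultivars aligned equally well to this locus was not tested. On day 12 the difference was -0.25 ± 0.16 (edgeR adjusted p = 0.259). Between day 12 and day 0 OsMADS55 gave 0.06 ± 0.16 in T65 (edgeR adjusted p = 0.881) and -0.14 ± 0.14 in NB (0.581).

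Of the SVP-like genes in NB on day 12, OsMADS47 was called lower, OsMADS22 was called higher and OsMADS55 was not called, and the members were not tested against each other. Within a library, OsMADS47 had 26.5 to 27.2 counts per 100 counts of OsMADS22 in T65 on day 12 and 38.4 to 47.2 on day 0. In NB the same count ratio was 17.2 to 20.0 on day 12 and 32.2 to 36.6 on day 0. The ratio was lower on day 12 in every library of both cultivars.

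OsMADS51, the short-day promoter, fell in both cultivars. In T65 its level was 90.1, 77.9 and 90.8 CPM on day 0, 77.8, 78.0 and 78.8 CPM on day 4, 76.2, 86.2 and 82.3 CPM on day 8, and 63.7 and 50.7 CPM on day 12. The NB libraries stood at 85.4, 95.6 and 90.1 CPM on day 0, 76.0, 75.5 and 83.7 CPM on day 4, 76.2, 67.0 and 80.1 CPM on day 8, and 60.0, 65.8 and 70.6 CPM on day 12. Day 12 lay below day 0 without overlap in each cultivar.

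The log2 fold change of OsMADS51 between day 12 and day 0 was -0.59 ± 0.11 in T65 (edgeR adjusted p = 0.00294) and -0.46 ± 0.09 in NB (edgeR adjusted p = 0.00201). T65 minus NB was -0.12 ± 0.14 (edgeR adjusted p = 0.653), and the cultivars on day 12 differed by -0.19 ± 0.10 (0.187). Without T65 day 12 replicate 2, which leaves 1 library on that day, the T65 change was -0.44. Over the higher-share libraries, where T65 day 0 keeps 1 library, it was -0.65. The T65 call was lost in both settings. In T65 the step between day 12 and day 8 passed, at -0.50 ± 0.11 (edgeR adjusted p = 0.0315), the 1 call among the 6 genes where 0.736% of all loci passed. Leaving out any of the 3 T65 day 8 libraries gave adjusted p-values of 0.0711 to 0.0974, and leaving out T65 day 12 replicate 2 gave 0.746.

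Against day 0, edgeR made no call among the 6 genes on days 4 and 8. In T65, edgeR called 0 of 6 on day 4 (0.149% of all loci; 0 unadjusted, 0 by DESeq2) and 0 on day 8 (1.06% of all loci; 1 unadjusted, 0 by DESeq2). Between T65 day 8 and day 4 edgeR called 0, as it did 0% of all loci (1 unadjusted, 0 by DESeq2). At NB day 4 against day 0, edgeR called 0 of 6, while 20.3% of all loci passed. Of the 6, 5 had an unadjusted edgeR p under 0.05, as had 7592 of the 22839 loci tested. DESeq2 called 2 of the 6. At NB day 8 against day 0, edgeR called 0 against 2.21% of all loci, with 3 at an unadjusted p under 0.05 and 0 by DESeq2. Of the 22839 loci, 3764 had an unadjusted edgeR p under 0.05 there. In T65 the same count was 2047 on day 4, 2465 on day 8 and 1544 between days 8 and 4. The percentages of all loci are of adjusted edgeR calls, and none is given for DESeq2.

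The NB day 4 libraries did not agree among themselves. Replicates 1 and 3 each merge several sequencing samples (12.4 M and 21.4 M gene counts). Replicate 2 (24.9 M) and the NB day 0 libraries do not. Without replicate 2, merged libraries are therefore set against unmerged ones, and the part of merging in the values below was not tested. Replicate 2 had the lowest OsMADS50 (67.6 CPM), OsMADS47 (61.8 CPM) and OsMADS22 (224 CPM) and the highest OsMADS55 (151 CPM) of the 3. Without replicate 2, OsMADS22 was higher than on day 0 by 0.28 on the log2 scale (edgeR adjusted p = 0.00482). In the same fit OsMADS50 was 0.38 higher (0.00108) and OsMADS55 had a log2 fold change of -0.64 (0.000549). With all 3 libraries these log2 fold changes were 0.20 ± 0.07, 0.21 ± 0.10 and -0.39 ± 0.14, with edgeR adjusted p-values of 0.0519, 0.149 and 0.0599. The calls over all loci rose as well, from 4631 with all 3 libraries to 6982 without replicate 2.

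The remaining cultivar tests gave no calls by edgeR among the 6 genes. Of 22839 loci, 3334 and 948 had an unadjusted edgeR p under 0.05 for the interactions at days 4 and 8. Between the cultivars on days 0 and 4, 5072 and 6689 loci had one. For the interaction at day 4 edgeR called 0 (1.83% of all loci; 0 unadjusted, 0 by DESeq2), and for that at day 8 it called 0 (0.00876% of all loci; 1 unadjusted, 0 by DESeq2). The 1 was OsMADS50, whose T65 minus NB difference of the day 8 effects was 0.38 ± 0.15 (edgeR adjusted p = 0.965). Between T65 and NB on day 0 edgeR called 0 (6.53% of all loci; 1 unadjusted, 1 by DESeq2), and on day 4 it called 0 (15.4% of all loci; 2 unadjusted, 0 by DESeq2).

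Across the 23 libraries, OsMADS50 and OsMADS47 had log2 CPM with a Pearson r of 0.856. Within T65 the r was -0.126 (n = 11) and within NB it was 0.921 (n = 12). In NB, OsMADS56 ran against both, with r of -0.649 to OsMADS50 and -0.779 to OsMADS47. Libraries of a group share their day and cultivar, so these values describe the courses above and are not further support for them.

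By Pearson r of log2 CPM, the nearest genes of the lists below differed between members. OsMADS50 and OsMADS47 were nearest to OsMADS20 (r of 0.844 and 0.873) and PINE1 (0.832 and 0.814) over the 23 libraries. Over the 8 group means the Spearman rho of OsMADS47 was 0.976 with OsMADS20 and 0.833 with PINE1. For OsMADS50 it was 0.476 and 0.262, below the 0.714 with OsMADS2, a floral organ MADS-box gene (r of 0.803). OsMADS20 is an AP1/FUL-like MADS-box gene, and PINE1 is a zinc finger repressor of internode elongation. OsMADS22 and OsMADS56 were nearest to OsMADS18, another AP1/FUL-like gene (r of 0.829 and 0.737). OsMADS51 was nearest to PINE1 (0.678), and OsMADS55 to LHCB5, a chlorophyll-binding protein gene among the green leaf markers (0.713). Among 15955 tested loci with a mean of at least 5 CPM, the nearest was LOC_Os09g32010 for OsMADS50 (0.938), LOC_Os05g41950 for OsMADS47 (0.937), LOC_Os10g42150 for OsMADS22 (0.883), LOC_Os11g09140 for OsMADS55 (0.908), LOC_Os11g24484 for OsMADS56 (0.872) and LOC_Os04g49620 for OsMADS51 (0.849). The files give these loci no symbols.

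The genes placed around the 6 in the flowering pathway were read from gene lists. Upstream, of 10 day-length and clock genes 7 were tested; between day 12 and day 0, 2 were called in T65 (5.13% of all loci) and 3 in NB (13.2% of all loci), all of them higher. The T65 count was 0 to 2 over 13 alternative settings and moved in 6 of them. OsGI, placed upstream of OsMADS51, rose by 1.02 ± 0.14 on the log2 scale in T65 (edgeR adjusted p = 0.000291) and by 0.69 ± 0.12 in NB (0.000953). OsGI was thus higher and OsMADS51 lower on day 12 in both cultivars. In T65 the OsGI call was lost under 1 of 13 alternative settings and the OsMADS51 call under 2 of 13. OsGI follows the clock, and neither the time of day of collection nor a shift in its daily course could be read. The step between the 2 genes was not tested. Downstream, Ehd1 and Hd3a were listed at 0 counts in all 23 libraries, and the day-length repressor Ghd7 was at 0 as well. All libraries were of apices, and leaf blades were not sampled, so the pathway in leaves was not read. FTL1, a relative of the florigen genes, averaged 0.533 ± 0.426 CPM in T65 (SD, n = 2) and 17.0 ± 1.24 CPM in NB (SD, n = 3) on day 12, and it was called higher than on day 0 in both. Its log2 fold change was 6.94 ± 0.36 in NB (edgeR adjusted p = 3.8e-11). In T65 it was 2.28 ± 0.54 (edgeR adjusted p = 0.0166), a call lost under 3 of 12 alternative settings, with changes of 0.86 to 2.81. The T65 mean of day 12 lay near the floor, since 3 counts stand for 0.132 and 0.347 CPM in those 2 libraries. T65 minus NB for FTL1 was -4.66 ± 0.82 (edgeR adjusted p = 0.00293). Taken as under 3 counts, a 0 leaves room for a level between 0.112 and 0.347 CPM, set by each library's size (counting error only).

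Of the 5 inflorescence MADS-box genes, 2 rose and 1 fell in T65 between day 12 and day 0 (5.13% of all loci), and 4 rose and 1 fell in NB (13.2% of all loci). OsMADS14, an AP1/FUL-like gene, averaged 5.66 ± 2.93 CPM in T65 (SD, n = 2) and 97.1 ± 33.5 CPM in NB (SD, n = 3) on day 12. OsMADS20, the list gene with the highest Pearson r to OsMADS50, changed by -1.96 ± 0.28 in T65 (edgeR adjusted p = 0.00042) and by -3.76 ± 0.30 in NB (2.22e-08).

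T65 on day 12 may be set beside NB on day 8. OsMADS50 was at 91.5 ± 3.03 CPM in T65 (SD, n = 2) and 62.7 ± 6.67 CPM in NB (SD, n = 3). OsMADS14 averaged 5.66 CPM in T65 and 22.9 CPM in NB, OsMADS18 109 CPM in T65 and 153 CPM in NB, and PINE1 37.9 CPM in T65 and 27.7 CPM in NB. These groups differ in both day and cultivar and were not tested against each other.

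Since the SVP-like proteins are tied to brassinosteroids in rice, 13 genes of that pathway were also read, 12 of them tested. Between day 12 and day 0, 1 was called in T65 (5.13% of all loci), as higher, and 3 were called in NB (13.2% of all loci), as lower. The T65 count was 0 to 3 and the NB count 1 to 4 over the alternative settings. The median log2 fold change was -0.14 in T65 and -0.04 in NB. The 3 in NB were synthesis genes: D11 at -0.88 ± 0.14 (edgeR adjusted p = 0.000222), D2 at -0.997 ± 0.24 (0.00934, lost under 2 of 14 alternative settings) and BRD1 at -0.44 ± 0.13 (0.024). DWARF4 and BRD2, also synthesis genes, were not called in NB, at -0.16 and -0.055 (edgeR adjusted p = 0.738 and 0.755). BRD1 was the gene that rose in T65, by 0.65 ± 0.14 (edgeR adjusted p = 0.00962), and T65 minus NB for it was 1.09 ± 0.19 (0.00274). The BRD1 call in NB was lost under 5 of 14 alternative settings and that in T65 under 2 of 13. For D2 and D11, T65 minus NB passed as well, at 1.24 ± 0.36 and 0.69 ± 0.21 (edgeR adjusted p = 0.0411 and 0.0478), calls lost under 9 and 11 of 19 alternative settings. These 3 were called of the 12 tested, against 6.81% of all loci.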

How the data were processed

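Per the submitters' processing notes, the tools were edgeR 3.6.4, R 3.1.0, HTSeq, TopHat2 and Bowtie2, with no roles given. The sources used here do not give the genome build, annotation release or strand setting. Antisense and overlapping genes therefore cannot be told apart. Whether reads of T65 and NB aligned equally well to the genome used was not tested, which bears on every level compared between the cultivars. The authors deposited raw read counts per MSU locus, 1 file per library. The labels list 30 sequencing samples, and 5 of the 23 libraries merge several of them. The 5 summary lines were excluded: relative to gene counts, reads in no gene came to 4.72 to 5.51%, ambiguous reads to 2.01 to 2.44%, and reads aligned to several places, which the gene counts leave out, to 5.76 to 6.71% in 7 libraries and 9.59 to 10.9% in 16. The alternatives include a term for this split (at 8%) and the higher-share libraries alone.

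Counts were fitted with edgeR 4.0.16 in R 4.3.3 (filterByExpr, TMM, glmQLFit, glmQLFTest), with the 8 groups in 1 model (15 residual degrees of freedom, common biological coefficient of variation 12.7%). P-values were adjusted by Benjamini-Hochberg over 22839 loci within each of 17 comparisons, at 0.05. The SE is the log2 fold change divided by the square root of F. Correlations use log2 CPM with a prior count of 2. The fit was tried on simulated counts with changes placed in NB day 12 alone. Those counts held no split, merged libraries or shared deviations of replicates, so the trial does not speak to these. DESeq2 1.42.0, other scalings, no filter, the compared groups alone, a replicate block and leaving out each library were alternatives. Libraries of a group were not duplicates: their chi-square per gene was 5.61 to 48.4. No block was used in the main fit, since the labels do not say that replicate numbers mark a shared harvest. In NB, same-numbered libraries of days 4, 8 and 12 did deviate together to some degree, though some of these pairs also shared a side of the split in multi-aligned share.

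All 6 members were named in every comparison. List genes were named if called, at most 4 per list and comparison by smallest p, and the nearest courses were the top 3 list genes and the top locus by Pearson r; those named in the text are fewer. OsMADS14, OsMADS18 and PINE1 at NB day 8, Ehd1, Hd3a, Ghd7, DWARF4 and BRD2 were picked for their role. Members and lists were chosen with earlier results of these data known. Symbols were assigned to loci by hand; of 6 members 5 and of 67 list genes 53 matched the RefSeq table on the same chromosome, and OsMADS51 did not.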

Additional observations from a re-analysis of the deposited data

Results flagged for a closer look

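The change of OsMADS50 between day 12 and day 0 differed between the cultivars by a direct test of that difference. T65 minus NB was 1.24 ± 0.16 on the log2 scale (edgeR adjusted p = 0.000168), with a change of 0.10 ± 0.12 in T65 and of -1.14 ± 0.11 in NB. Every NB library of day 12 lay below every NB library of day 0, whereas both T65 libraries of day 12 lay above all 3 of day 0. The difference passed under 18 of 19 alternative settings.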

How the results depend on the processing

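Of 252 recomputed counts of members called, 208 stayed within 1.5 times the reported count. At NB day 4 against day 0 the count of 0 became 2 with DESeq2, 1 with RLE size factors, 2 with no filter and 2 with the replicate block, and 0 to 3 with 1 library left out (3 without NB day 4 replicate 2). At NB day 12 against day 0 the count of 5 was 3 to 5 with 1 library left out (3 without NB day 0 replicate 1 or NB day 12 replicate 2). At T65 day 12 against day 0 the count of 2 became 1 with RLE, library totals, the split term or the compared groups alone, 0 in the higher-share libraries, and 0 to 2 with 1 library left out (0 without T65 day 12 replicate 2, 1 without any T65 day 0 library). No filter gave 1 in place of 0 at NB day 8 against day 0, T65 day 8 against day 0, T65 day 8 against day 4, and between cultivars on days 0 and 4. NB day 8 against day 4 had 1, but 0 in the higher-share libraries or the compared groups alone, and 1 to 2 with 1 library left out. NB day 12 against day 8 had 1, but 2 with DESeq2, library totals, no filter or the replicate block, and 1 to 2 with 1 library left out. T65 day 12 against day 8 had 1, but 0 with the split term, the higher-share libraries or the compared groups alone, and 0 to 1 with 1 library left out. The interaction at day 4 had 0, or 0 to 1 with 1 library left out (1 without NB day 4 replicate 2); at day 12 it had 1, but 0 in the higher-share libraries. Between cultivars, day 0 had 0, but 1 with DESeq2 and 2 with the compared groups alone; day 4 had 0, but 1 with library totals and 0 to 1 with 1 library left out; day 8 had 1, but 0 in the higher-share libraries; day 12 had 2, and 1 to 3 with 1 library left out (1 without T65 day 12 replicate 2). The causes were not tested, beyond the smaller number of libraries in some settings. Of 1512 recomputed log2 fold changes of the members 34 lost a call, 30 gained one and 0 changed sign with a call. The falls of OsMADS50 (-1.22 to -1.11), OsMADS47 (-0.71 to -0.56) and OsMADS51 (-0.54 to -0.41) at NB day 12 passed under all 14 alternatives, and OsMADS50 between cultivars on day 12 under all 13. Same-numbered libraries had deviations correlated above 0.1 in 9 of 33 pairs, and differently numbered ones in 10 of 66. The cultivars differed in this. In NB, replicates 1, 2 and 3 of days 8 and 12 had r of 0.073, 0.374 and 0.496. Those of NB days 4 and 8 had 0.157, 0.261 and 0.061, and those of NB days 0 and 12 had -0.009, -0.034 and -0.045. In T65, those of days 4 and 8 had 0.336, -0.226 and 0.141. So the numbers are not shown to pair in T65, whereas in NB same-numbered libraries of days 4, 8 and 12 deviated together. The counts over all loci moved more: 4631 at NB day 4 (1106 to 6982), 505 at day 8 (97 to 1703), 3023 at day 12 (1187 to 4214), 34, 243 and 1171 at T65 days 4, 8 and 12 (1 to 513, 2 to 844, 13 to 2254), 2742 and 476 for the NB steps (118 to 3767, 39 to 1425), 0 and 168 for the T65 steps (0 to 420, 0 to 1169), 419, 2 and 1555 for the interactions (13 to 1088, 1 to 183, 13 to 2432), and 1492, 3511, 957 and 7018 between cultivars on days 0, 4, 8 and 12 (409 to 3032, 1335 to 4081, 331 to 1413, 3348 to 7263). Library totals moved the median of all loci by at most 0.0748 on the log2 scale. Ehd1, Hd3a and Ghd7 were at 0 counts in all 23 libraries, which speaks only of these apices, down to the counting floor.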
